A study of Mus musculus with 2 samples.

Results

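Genes of G protein-coupled receptors were picked by symbol from the joined expression tables of cultured WT and β-arr1 KO astrocytes, with a rule that took the families of adrenergic, serotonin, dopamine, muscarinic, purine, lysophosphatidic acid, sphingosine 1-phosphate, endothelin, glutamate, GABA(B), cannabinoid, prostaglandin E, protease-activated, angiotensin, bradykinin, PACAP, VIP, somatostatin, neuropeptide Y, calcitonin-like, parathyroid hormone, oxytocin and tachykinin receptors, and every symbol of Gpr followed by a digit. It picked 164 of 16302 genes. The tables' own annotation gives the term G protein-coupled receptor activity for 147 of them. Of the other 17, 7 are such receptors by name or family (among them Oxtr, Ptger3 and Gpr39) and 10 were set apart as not receptors of this class, such as Gpr89, Gpr107, Gpr137 and Agtrap. Receptors under a Gpr number also include adhesion receptors and receptors with no settled ligand, so the genes described are a wider set than receptors for transmitters and lipids.

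G protein-coupled receptors carry signals from transmitters, lipids, nucleotides and peptides outside the cell to heterotrimeric G proteins inside it. After a receptor is activated, kinases phosphorylate its intracellular parts, and an arrestin binds there, uncouples the receptor from its G protein and helps to take it up from the cell surface. β-arr1 (β-arrestin 1, gene Arrb1) is among the 2 arrestins found in most tissues, and it also acts in the nucleus on transcription. In the brain, astrocytes carry many such receptors, through which they sense noradrenaline, ATP, endothelin and lipid mediators. The question here was which receptor genes differed in transcript level between astrocytes with and without a functional Arrb1 gene.

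Astrocytes were cultured from the adult dentate gyrus (DG) of the hippocampus of wildtype (WT) mice and of Beta-arr1 knockout (β-arr1 KO) mice, both labelled with the strain C57BL/6 (C57BL/6J in the methods of the study) and with no further treatment named. The knockout affected every cell of the animal and was not limited to astrocytes. RNA-seq gave 1 library per genotype, so there is no error between replicates, no test and no p-value, and every difference described is one between 2 libraries. Samples came from 3 mice in each group, and whether their cells or RNA were pooled is not given in the sources used here. The cultures grew in medium with serum and were shaken to detach dividing cells, oligodendrocyte progenitors and neurons before RNA was taken. Levels are FPKM (fragments per kilobase of transcript, scaled to the mapped fragments of the library), which the authors computed. Where values are given as a pair, WT comes first and β-arr1 KO second.

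Genes that reached 1 FPKM in either library were analysed. They were called higher where the KO value divided by the WT value exceeded 3/2 and lower where it was under 2/3. A gene listed for 1 library only was always called, higher if listed for KO and lower if listed for WT. The lowest values fell on steps of whole fragments, from which the WT library was estimated to hold 9.38 M mapped fragments and the KO library 9.52 M. The 95% intervals given with the ratios (exact Clopper-Pearson) were computed from fragments estimated in this way and cover counting error only. Arrb1 itself stood at 7.62 FPKM in WT, against 2.72 FPKM in KO, giving a ratio of 0.358 with an interval of 0.30 to 0.425. Astrocyte markers were listed in both libraries (10 of 10, with Gfap at 189 and 192 FPKM), but markers of other cells were too: Acta2, a gene of smooth muscle, was at 2478 and 2469 FPKM, and 10 of 10 microglia markers summed to 1306 and 982 FPKM. The 4 Y-linked genes (Ddx3y, Eif2s3y, Kdm5d and Uty) summed to 8.44 FPKM in β-arr1 KO and none of them was listed in WT, while Xist, a transcript of female cells, was at 39.4 and 29.7 FPKM. The libraries thus differed in these sex-linked transcripts, with Xist present in both, and sex and genotype cannot be told apart.

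Of the 164 genes, 141 were listed in both tables, 7 in the WT table only and 16 in the KO table only. At least 1 FPKM in at least 1 library was reached by 76, and the other 88 stayed under it. Among the 76, 10 were higher, 8 were lower and 58 lay between the limits. These 18 make 23.7%, beside 17.8% of all 12646 genes at this level (higher, 9.56%, and lower, 8.28%). Genes listed for 1 library only are called in each share. Of the 76 receptor genes 75 were listed in both tables, and of all 12646 genes 12171 were. The shares of all genes here and below thus hold more such calls, which limits each comparison with them. The 18 genes include Gpr137b, which is not a receptor of this class. Without the 10 genes set apart as not receptors, 66 remained, of which 10 were higher and 7 lower (25.8%). Counts of receptor genes here and below are over all picked genes unless stated. The median log2 ratio was 0.04 over the 75 genes listed in both tables and 0.02 over all genes. The receptor genes had no common direction, with ratios above 1 in 40 and below 1 in 35 of the 75. At 1 to 5 FPKM 27.0% of the receptor genes were past a limit, under the 33.1% of all genes there, and at 5 FPKM and more it was 20.5%, above the 12.5% of all genes. The interval lay above 1 in 21 of 75 receptor genes (22.2% of all genes) and below 1 in 17 (18.3% of all genes).

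**Figure D1:**
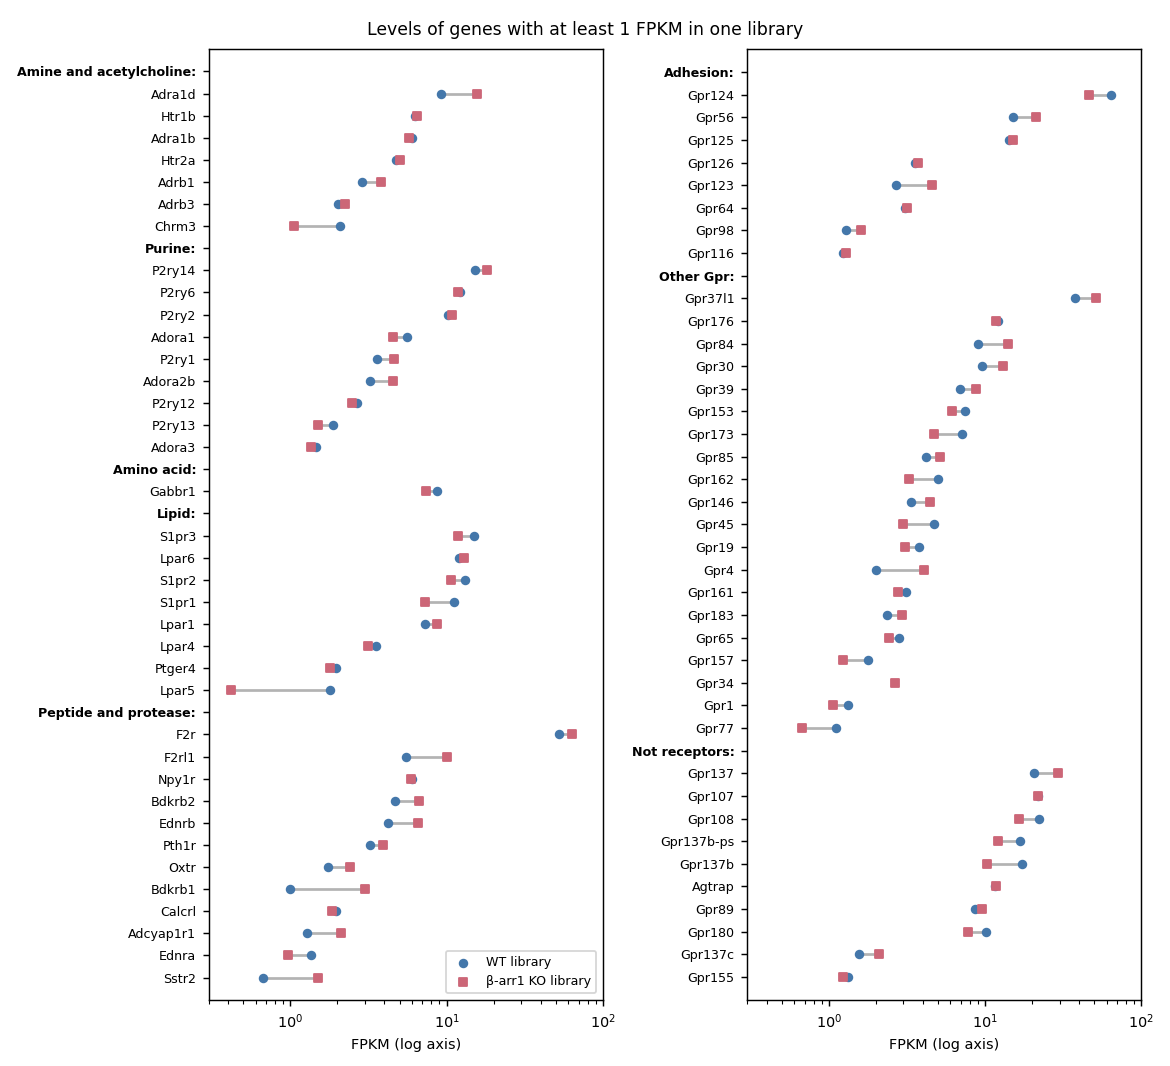
FPKM (log axis) of genes that reached 1 FPKM in either library, in groups by ligand or family and ordered by mean level, with the WT library as blue circles and the β-arr1 KO library as red squares. Gpr124, F2r and Gpr37l1 had the highest levels, each over 37 FPKM in both libraries, and Gpr34 has a KO point only.

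The highest levels were those of an adhesion receptor, a protease-activated receptor and an orphan receptor. Gpr124, an adhesion receptor that acts with Wnt7 in the growth of brain vessels, stood at 64.4 FPKM in WT, against 46.0 FPKM in KO. Its ratio of 0.714 (interval 0.677 to 0.754) was the lowest among the adhesion receptors but stayed above 2/3. F2r, the thrombin receptor PAR1, stood at 52.2 FPKM in WT, against 63.9 FPKM in KO, giving a ratio of 1.22 with an interval of 1.14 to 1.31. Gpr37l1, a receptor gene of astrocytes, stood at 37.9 FPKM in WT, against 51.6 FPKM in KO, giving a ratio of 1.36 with an interval of 1.24 to 1.5. The intervals of all 3 excluded 1 while none of the ratios reached a limit, with an estimated 739 to 3207 fragments behind each value. In all, 24 genes had at least 10 FPKM in the higher library, and 5 of them were past a limit, with ratios from 0.601 to 1.84. This is 20.8%, beside 11.2% of all genes at that level.

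Among the receptors for amines and acetylcholine, 8 of 25 reached 1 FPKM, with 1 higher and 1 lower (25%, beside 17.8% of all genes at this level). Adra1d, the α1D-adrenergic receptor, which couples noradrenaline to phospholipase C, stood at 9.23 FPKM in WT, against 15.6 FPKM in KO. That ratio of 1.69 (interval 1.37 to 2.08) was the largest of the 8. The closely related Adra1b was nearly level at 5.97 and 5.70 FPKM, and Adra1a stayed under 1 FPKM at 0.989 and 0.944 FPKM. Of the 3 α1 genes, Adra1d alone was past a limit. The β-adrenergic receptor genes Adrb1 (2.89 and 3.78 FPKM) and Adrb3 (2.01 and 2.24 FPKM), whose receptors raise cAMP, lay between the limits. Both intervals included 1.

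Chrm3, the muscarinic M3 receptor for acetylcholine, stood at 2.06 FPKM in WT, against 1.05 FPKM in KO, giving a ratio of 0.511 with an interval of 0.272 to 0.931 that rests on about 34 and 18 fragments. The other 3 muscarinic receptor genes were below 0.3 FPKM in both libraries. Of the serotonin receptors only Htr1b (6.27 and 6.51 FPKM) and Htr2a (4.77 and 5.0 FPKM) reached 1 FPKM, with ratios of 1.04 and 1.05. No dopamine receptor gene reached 1 FPKM.

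Of the purine receptors, 9 of 10 genes reached 1 FPKM, and none was past a limit, beside 17.8% of all genes at this level. P2ry14, the receptor for UDP-glucose, had 15.2 (WT) and 18.3 FPKM (KO). P2ry6, the UDP receptor, was at 12.2 and 11.8 FPKM, and P2ry2, a receptor for ATP and UTP, at 10.3 and 10.9 FPKM. The ADP receptors P2ry12 (2.67 and 2.46 FPKM) and P2ry13 (1.87 and 1.51 FPKM), which in the brain are genes of microglia, had ratios of 0.922 and 0.810, with intervals that included 1. Of the adenosine receptors, Adora1, which lowers cAMP, was at 5.58 and 4.54 FPKM (ratio 0.813, interval 0.684 to 0.967). Adora2b, which raises cAMP, had 3.26 and 4.56 FPKM (ratio 1.4, interval 0.968 to 2.04), so the adenosine receptor values lay on either side of 1.

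Among the 8 genes for metabotropic receptors of glutamate and GABA, 1 reached 1 FPKM. Gabbr1, a subunit of the GABA(B) receptor, stood at 8.64 FPKM in WT, against 7.41 FPKM in KO (ratio 0.857, interval 0.742 to 0.990). Its partner subunit Gabbr2, needed for a working receptor, was at 0.547 and 0.914 FPKM (ratio 1.67, interval 1.03 to 2.76), under the level from which changes were called. None of the 6 listed Grm genes, which encode metabotropic glutamate receptors, reached 0.3 FPKM in either library. Grm5, the receptor known from young astrocytes, was at 0.0254 and 0.0247 FPKM, a value of about 2 fragments.

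Lipid receptors reached 1 FPKM in 8 of 16 genes, of which 2 were lower and none was higher. This is 25% past a limit, beside 17.8% of all genes at this level (lower, 8.28%). All 3 sphingosine 1-phosphate (S1P) receptor genes at this level had lower values in β-arr1 KO. S1pr1, which couples to Gi, stood at 11.1 FPKM in WT, against 7.31 FPKM in KO, giving a ratio of 0.658 with an interval of 0.548 to 0.790, just under the limit of 2/3. S1pr3, the highest of the lipid receptors in WT, was at 15.0 and 11.9 FPKM (ratio 0.791, interval 0.701 to 0.893), and S1pr2 was at 13.0 and 10.7 FPKM (ratio 0.822, interval 0.697 to 0.969). Each of the 3 intervals lay below 1, as for 18.3% of all genes with an interval, and each gene had the same locus bounds in both tables. Summed over the 5 listed S1P receptor genes, the level was 39.5 (WT) and 30.1 FPKM (KO).

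The receptors for lysophosphatidic acid (LPA) did not share a direction. Lpar6 (12.1 and 12.9 FPKM), Lpar1 (7.31 and 8.70 FPKM) and Lpar4 (3.56 and 3.16 FPKM) lay between the limits with intervals that included 1. Lpar5 stood at 1.79 FPKM in WT, against 0.416 FPKM in KO, the lowest ratio among the 75 genes at 0.233 (interval 0.0686 to 0.634), which rests on about 21 and 5 fragments. The row of Lpar5 ended at 125033457 in WT and at 125032490 in KO, a difference that the interval does not cover. The cannabinoid receptors Cnr1 and Cnr2 stayed under 1 FPKM. Of the receptors for prostaglandin E2, Ptger4 alone reached 1 FPKM, at 1.96 and 1.79 FPKM.

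The receptors for peptides and proteases were the group with the most genes above the upper limit: 12 of 26 genes reached 1 FPKM, 5 were higher and none was lower. The share past a limit was 41.7%, beside 17.8% of all genes at this level. Bdkrb1, Adcyap1r1 and Sstr2, among the 5, lay at 1 to 5 FPKM, where 33.1% of all genes were past a limit. The ratio exceeded 1 in 9 of the 12, and the interval lay above 1 in 8. Their median log2 ratio was 0.48, beside 0.02 over all genes, where 6459 of 12171 ratios exceeded 1. The group holds 12 genes in a single pair of libraries, and this is a description of it without a test. Of the 5 higher genes, Ednrb alone had the same locus bounds in both tables, so with equal bounds required the count was 1, as in the adhesion group and among the other Gpr receptors.

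F2rl1, the protease-activated receptor PAR2, which trypsin-like proteases cut and switch on, stood at 5.46 FPKM in WT, against 10.1 FPKM in KO, giving a ratio of 1.84 with an interval of 1.49 to 2.29. Ednrb, the endothelin receptor typical of astrocytes, was at 4.21 and 6.52 FPKM (ratio 1.55, interval 1.26 to 1.92), whereas Ednra, the receptor typical of smooth muscle, was at 1.36 and 0.969 FPKM (ratio 0.714, interval 0.438 to 1.15). The interval lay above 1 for Ednrb and included 1 for Ednra, and the difference between them was not tested. Both bradykinin receptors had higher values in β-arr1 KO. Bdkrb1, which tissue damage and cytokines induce, was at 0.998 and 3.02 FPKM, the highest ratio of the 75 receptor genes at 3.02 (interval 1.5 to 6.62), from about 11 and 34 fragments. Bdkrb2, the constitutive receptor, was at 4.66 and 6.63 FPKM (ratio 1.42, interval 1.03 to 1.98).

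Adcyap1r1, the PACAP receptor, which raises cAMP, stood at 1.28 FPKM in WT, against 2.09 FPKM in KO, giving a ratio of 1.63 with an interval of 1.20 to 2.22. Sstr2, a somatostatin receptor, which lowers cAMP, was at 0.670 and 1.49 FPKM, giving a ratio of 2.23 with an interval of 1.10 to 4.81 from 12 and 28 fragments. The row of Sstr2 ran from 113485571 to 113486950 in WT and from 113480751 to 113486950 in KO. Its fragments and interval use 1 transcript length for both libraries and do not cover this difference. In WT the row overlapped that of Slc39a11 (12.1 FPKM) on the opposite strand. Npy1r, for neuropeptide Y (6.02 and 5.93 FPKM), and Calcrl, the receptor subunit for CGRP and adrenomedullin (1.96 and 1.85 FPKM), were nearly level.

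**Figure D2:**
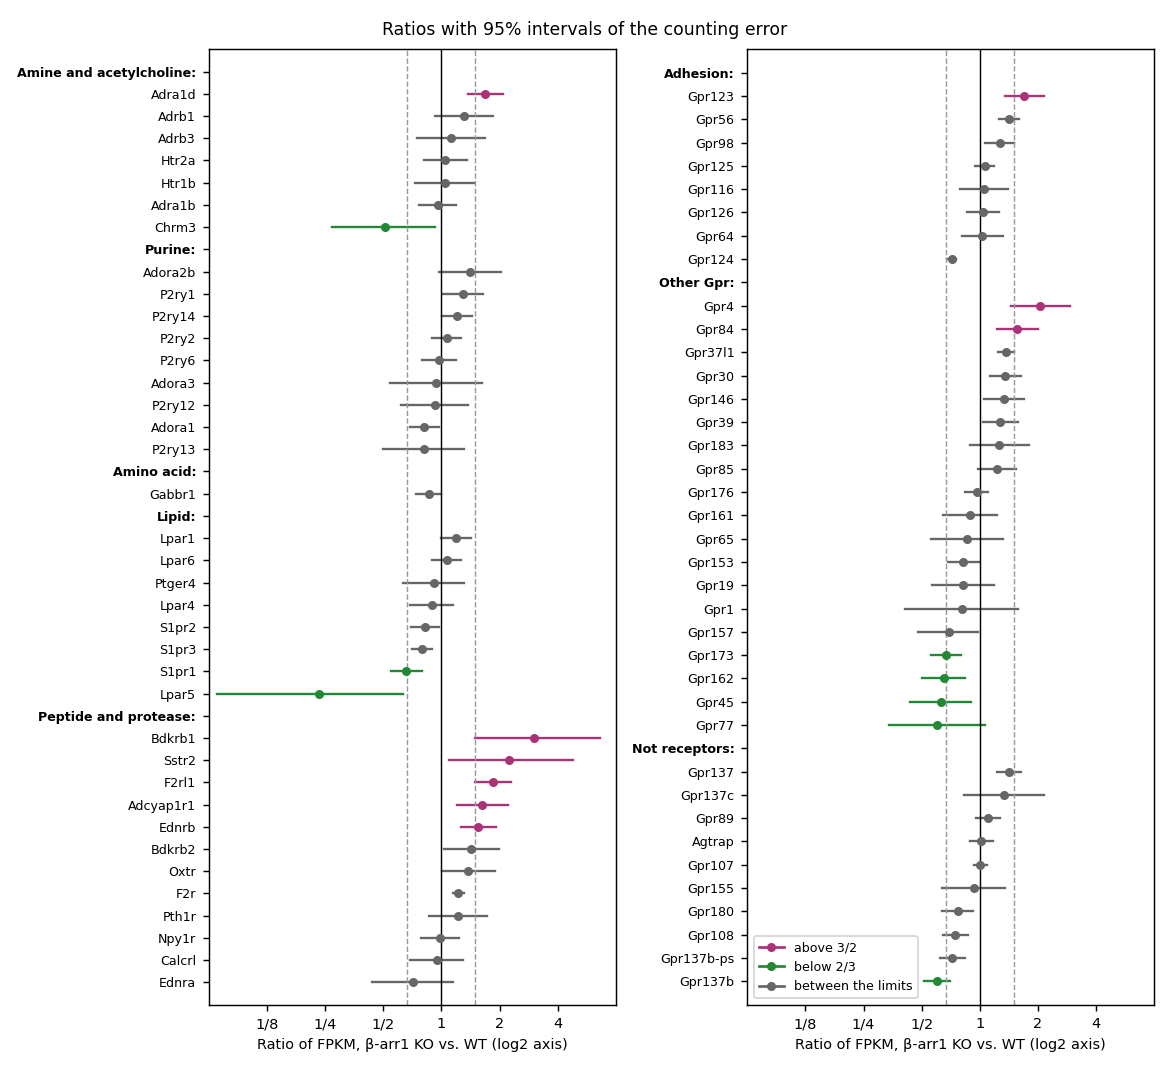
Ratio of FPKM, β-arr1 KO vs. WT (log2 axis), of receptor genes with at least 1 FPKM that were listed in both tables, with bars for the 95% interval of the counting error and dashed lines at 3/2 and 2/3. Higher genes (purple) numbered 5 of 12 among peptide and protease receptors, 1 of them (Ednrb) with equal locus bounds, and the 3 S1P receptors lay below 1 with their whole intervals.

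Of the 15 adhesion receptors, 8 reached 1 FPKM. Gpr123, an adhesion receptor without a settled ligand, was the single one past a limit, with 2.68 and 4.55 FPKM (ratio 1.70, interval 1.34 to 2.15). The share past a limit was 12.5%, beside 17.8% of all genes at this level. Gpr56, which binds collagen III and transglutaminase 2 and is a receptor of glial precursors, was at 15.1 and 21.3 FPKM (ratio 1.42, interval 1.25 to 1.60). Gpr125 was nearly level at 14.2 and 15.0 FPKM. Ratios exceeded 1 in 7 of the 8, with Gpr124 as the exception.

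Of 54 other receptors under a Gpr number, 20 reached 1 FPKM, with 3 higher and 4 lower. This is 35%, beside 17.8% of all genes at this level. Gpr84, a receptor for medium-chain fatty acids on microglia and macrophages, stood at 9.03 FPKM in WT, against 14.1 FPKM in KO (ratio 1.56, interval 1.23 to 1.99), while 9 of 10 microglia markers had ratios below 1. Gpr4, a proton-sensing receptor of endothelium, was at 1.99 and 4.09 FPKM (ratio 2.06, interval 1.46 to 2.94), the highest ratio among receptor genes that reached 1 FPKM in both libraries. Gpr65 (2.81 and 2.42 FPKM), which also senses protons, had an interval that included 1.

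Gpr34, a microglial receptor, was listed in the KO table only, at 2.65 FPKM. Its locus lies inside the row of Cask on the opposite strand, which stood at 10.6 FPKM in WT, against 12 FPKM in KO. Whether the counting used strand is not given in the sources used here, so reads of the overlapping genes cannot be told apart and no fold is given. In all, 23 of the picked genes overlapped the row of another gene, 15 of them at 1 FPKM or more. Among these were Lpar6 inside Rb1, P2ry12, P2ry13 and P2ry14 inside Med12l, Gpr137 overlapping Bad and Htr1b overlapping D430036J16Rik, each on opposite strands.

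The 4 lower genes of this group were Gpr173, Gpr162, Gpr45 and Gpr77. Gpr173, an orphan receptor of the conserved brain family that also holds Gpr85, stood at 7.11 FPKM in WT, against 4.74 FPKM in KO (ratio 0.666, interval 0.557 to 0.795), the gene nearest to a limit. Gpr85 did not go with it, at 4.2 and 5.15 FPKM. The orphan receptor gene Gpr162 was at 5.03 and 3.26 FPKM (ratio 0.649, interval 0.503 to 0.835) and Gpr45, another orphan, was at 4.72 and 2.97 FPKM (ratio 0.628, interval 0.437 to 0.896). Gpr77, the second receptor for complement C5a, was at 1.12 and 0.673 FPKM, and of the 17 called genes with an interval it was the single one whose interval included 1 (0.337 to 1.06).

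Among the 10 genes that match by name but are not receptors of this class, Gpr137b, a lysosomal membrane protein, was lower, at 17.2 and 10.3 FPKM (ratio 0.601, interval 0.516 to 0.70). Its near copy Gpr137b-ps was at 16.8 and 12.1 FPKM (ratio 0.720, interval 0.623 to 0.833). Reads could be divided between these copies in more than 1 way, which makes the ratio of each uncertain. The other 8 lay between the limits, with Gpr107, a protein of the Golgi, level at 21.9 and 22 FPKM.

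In the deposited coordinates (mm9, counted from 1), Adra1d lay on the minus strand of chromosome 2 from 131369678 to 131388588, F2rl1 on the minus strand of chromosome 13 from 96281684 to 96295195, and S1pr1 on the minus strand of chromosome 3 from 115413351 to 115417973, in the WT table. The bounds of S1pr1 were equal in both tables, whereas those of Adra1d and F2rl1 were not. This matters for the FPKM, which divides by length: among genes with at least 1 FPKM listed in both tables, 42 receptor genes had equal bounds (3 higher and 5 lower) and 33 had other bounds (6 higher and 3 lower). The higher genes with equal bounds were Ednrb, Gpr4 and Gpr123. The lower ones were S1pr1, Gpr137b, Gpr45, Chrm3 and Gpr77. Over all genes, 13.8% of those with equal bounds and 15.9% of those with other bounds were past a limit. The part of the bounds in the ratios was not tested.

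Promoters of called genes were searched for the cAMP response element (CRE, TGACGTCA, with the half-site TGACG), which CREB binds, because many of these receptors act through cAMP. They were also searched for AGGTCA, the half-site of nuclear receptors such as PPARγ. All motifs were searched on both strands. The 3 sequences shown, all of higher genes, are among those that held a match. The RefSeq table (GRCm38.p6) gives 250 bases before to 50 bases after a start, and exactly 1 such entry was matched for 9 of the 18 called genes. Capitals mark the match.

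Ednrb: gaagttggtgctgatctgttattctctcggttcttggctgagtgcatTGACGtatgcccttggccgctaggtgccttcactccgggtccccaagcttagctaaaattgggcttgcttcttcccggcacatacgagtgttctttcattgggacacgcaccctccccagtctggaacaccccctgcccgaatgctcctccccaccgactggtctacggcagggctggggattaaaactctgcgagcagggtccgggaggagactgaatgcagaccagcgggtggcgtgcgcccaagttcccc
Sstr2: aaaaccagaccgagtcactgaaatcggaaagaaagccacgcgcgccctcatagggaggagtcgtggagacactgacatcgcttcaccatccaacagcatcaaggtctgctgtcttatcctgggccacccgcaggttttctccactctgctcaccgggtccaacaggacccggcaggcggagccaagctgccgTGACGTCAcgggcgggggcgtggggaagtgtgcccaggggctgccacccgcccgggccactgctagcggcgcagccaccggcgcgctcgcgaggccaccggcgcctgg
Gpr84: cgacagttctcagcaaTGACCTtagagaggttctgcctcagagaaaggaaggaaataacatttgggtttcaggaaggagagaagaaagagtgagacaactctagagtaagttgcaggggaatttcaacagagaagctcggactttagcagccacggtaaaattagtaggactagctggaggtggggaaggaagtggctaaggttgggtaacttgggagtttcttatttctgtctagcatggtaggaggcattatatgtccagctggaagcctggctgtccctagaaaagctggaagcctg

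The sequence of Ednrb is the minus strand of chr14:103843652-103843951, that of Sstr2 the plus strand of chr11:113619077-113619376 and that of Gpr84 the minus strand of chr15:103310389-103310688. Sstr2 holds the complete CRE, which contains the half-site on both strands, with its first base 58 bases before the start (position -58). Ednrb holds a half-site at -203, and the promoter of Gpr123, not shown, holds one at -111, so that 3 of the 9 hold a half-site. Gpr84 holds the nuclear receptor half-site on the other strand, read here as TGACCT, at -234. The 5 other promoters (Adcyap1r1, Chrm3, Gpr173, Gpr4 and Gpr45) had no match to these letters. Of all 32851 promoters in the table, 1.79% hold the complete CRE, 20.8% a half-site and 16.3% the nuclear receptor half-site on either strand. Such matches describe the sequence and do not show a site in use.

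Below 1 FPKM, ratios of the receptor genes mostly followed from a few fragments. Of 66 such genes listed in both tables, 31 had a ratio past a limit, and 60 of the 63 with an interval had one that included 1. Counting genes listed in a single table too, 54.8% of the receptor genes at 0.1 to 1 FPKM and 73.1% of those under 0.1 FPKM were past a limit, under the 65.5% and 82.6% of all genes at these levels. In 40 of the 66 the ratio lay within 1% of a ratio of whole fragment numbers up to 6, where 1 fragment in each library gives 0.973. Drd1a, Grm5 and Sstr3 all had this ratio of 0.973 or 0.974. The exceptions with an interval above 1 were Gabbr2, Gpr50 (0.0643 and 0.624 FPKM, from 2 and 17 fragments) and Gpr179 (0.0115 and 0.0896 FPKM). Apart from Gpr34, the 22 genes listed in a single table had at most 0.441 FPKM.

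**Figure D3:**
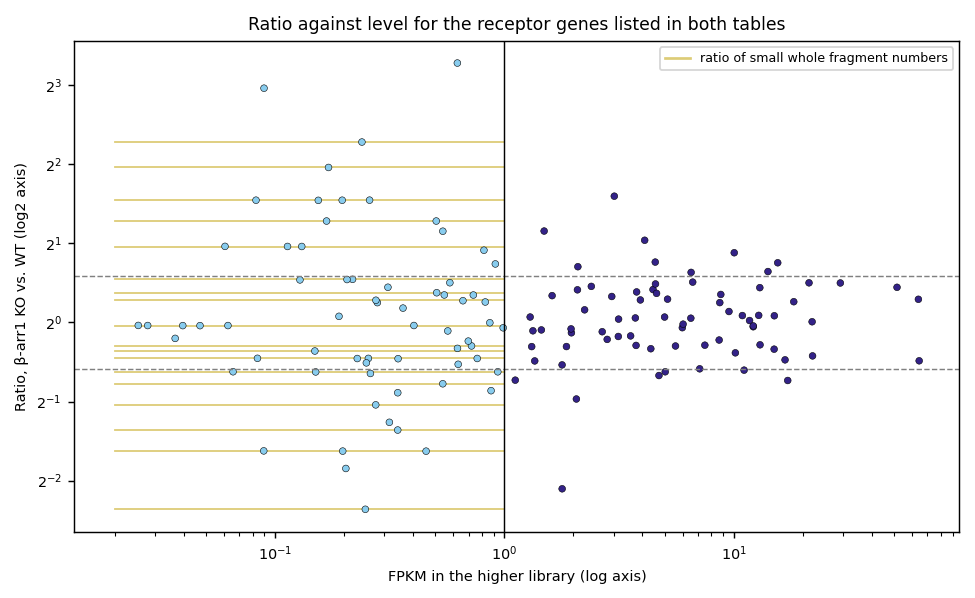
Ratio of FPKM, β-arr1 KO vs. WT (log2 axis), against FPKM in the higher library (log axis) for the 141 genes listed in both tables, with dark points at 1 FPKM and more. Yellow lines mark the ratios of small whole fragment numbers, on which 40 of the 66 genes under 1 FPKM lie, and dashed lines mark 3/2 and 2/3.

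The genes for ligands and their enzymes were set beside the receptors. Of 40 on the list, 34 were listed and 28 reached 1 FPKM, with 4 higher and 4 lower. This is 28.6%, beside 17.8% of all genes at that level. For S1P, the kinase Sphk1, which makes the ligand, stood at 7.15 FPKM in WT, against 13.8 FPKM in KO (ratio 1.92, interval 1.65 to 2.24), while the values of S1pr1, S1pr2 and S1pr3 were lower in KO. Sphk2, the other S1P kinase, was at 13.8 and 11.5 FPKM (ratio 0.839, interval 0.728 to 0.965), so the kinases did not share a direction. The lyase Sgpl1, which degrades S1P, was nearly level at 65.6 and 62.3 FPKM. For LPA, Enpp2 (autotaxin), which makes the ligand outside the cell, was at 20.2 and 5.11 FPKM (ratio 0.253, interval 0.211 to 0.301). It was lower, as was Lpar5, which had few fragments and unequal locus bounds, while Lpar1, Lpar4 and Lpar6 lay between the limits.

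The ligand endothelin 1 (Edn1) stood at 14.9 FPKM in WT, against 29.2 FPKM in KO (ratio 1.97, interval 1.71 to 2.26), so that both Edn1 and its receptor gene Ednrb had higher values. Ptges, a synthase of prostaglandin E2, was at 15.6 and 6.45 FPKM (ratio 0.413, interval 0.350 to 0.485), beside Ptger4 between the limits. The other prostaglandin synthesis genes on the list lay between the limits and did not share a direction. Ptgs2, with the highest level, was at 110 and 152 FPKM (ratio 1.38, interval 1.33 to 1.44). Ratios were 0.785 for Ptgs1, 1.12 for Ptges2 and 0.782 for Ptges3. Npy was at 9.81 and 19.7 FPKM (ratio 2.0, interval 1.33 to 3.07) with its receptor gene Npy1r nearly level. Maoa, which breaks down noradrenaline and serotonin, was at 31.6 and 66.5 FPKM (ratio 2.11, interval 1.96 to 2.26). Nt5e, the enzyme that makes adenosine outside the cell, was at 2.61 and 1.17 FPKM (ratio 0.446, interval 0.296 to 0.663). In these 2 libraries Edn1 and Ednrb were both higher, Enpp2 and Lpar5 were both lower, and of the S1P genes Sphk1 was higher and S1pr1 lower, with Sphk2 between the limits.

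**Figure D4:**
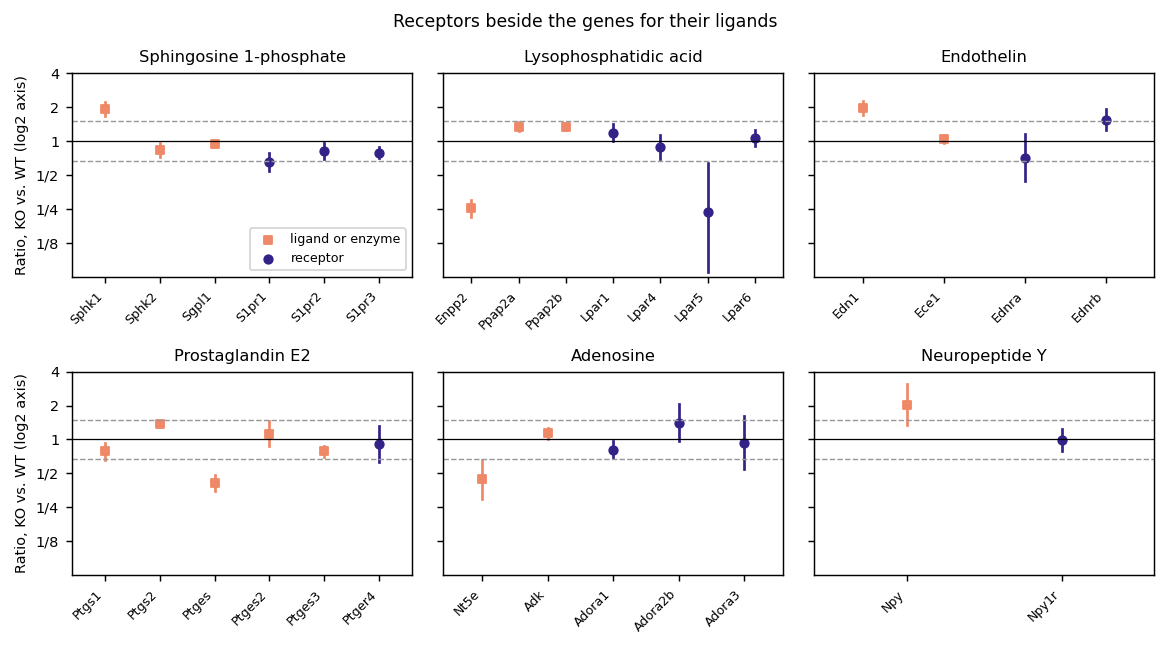
Ratio of FPKM, β-arr1 KO vs. WT (log2 axis), for genes of ligands or their enzymes (orange squares) and of receptors (blue circles) in 6 systems, with bars for the 95% interval of the counting error. Sphk1 lay above 3/2, Sphk2 and the S1P receptors lay below 1, and Edn1 and Ednrb were both above 3/2.

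Among the proteins that act directly on these receptors, 19 of 20 genes for G protein α subunits, arrestins and receptor kinases were listed, each at 1 FPKM or more in a library, with 3 higher and 2 lower. This is 26.3%, beside 17.8% of all genes at that level. Arrb2, which encodes the other widespread arrestin, stood at 31.6 FPKM in WT, against 23.3 FPKM in KO (ratio 0.737, interval 0.643 to 0.844), above the lower limit. The receptor kinases Adrbk1 (39.2 and 35.6 FPKM), Grk5 (14.7 and 16.8 FPKM) and Grk6 (18.1 and 19.3 FPKM) also lay between the limits. Gnao1, an α subunit of the Gi family, was higher, at 26.2 and 40.5 FPKM, as were Gnaz and Gnal. The lower genes were Arrb1 and Gna15.

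Several of the receptors are typical of cells other than astrocytes, and markers of those cells also differed between the libraries. In bulk RNA fewer cells of a type and less RNA per cell cannot be told apart. Of the astrocyte markers, 4 of 10 were higher and none was lower (sum, 396 and 420 FPKM), among them Aqp4 at 7.05 and 13.5 FPKM, beside the higher Ednrb and the value of Gpr37l1. Glul (83.3 and 61.8 FPKM, ratio 0.742) and Gja1 (34.0 and 29.4 FPKM, ratio 0.862) went the other way between the limits, with intervals below 1. Of the microglia markers, 1 of 10 was lower and none was higher, beside P2ry12, P2ry13 and Gpr84. Of the oligodendrocyte lineage markers, 4 of 10 were higher (sum, 107 and 153 FPKM), among them Olig2 at 6.19 and 13.1 FPKM, beside Gpr56.

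Of the 9 endothelial markers that reached 1 FPKM, 7 had ratios above 1, with 2 higher and 1 lower. The interval lay above 1 in 6 of them and below 1 in 1. Pecam1, a higher one, was at 3.03 and 5.22 FPKM, and Cdh5, the lower one, at 31.8 and 16.1 FPKM. Beside this list, Gpr4 was higher and S1pr1 lower. Of the fibroblast and meninges markers, 4 of 10 were lower and 1 higher (sum, 3136 and 2060 FPKM). Mural markers summed to 5787 and 5461 FPKM, mostly from Acta2 and Tagln. They had no common direction, with ratios above 1 in 4 of the 9 listed and below 1 in 5. Beside these lists, Gpr124 and the S1P receptors had lower values in KO and F2r a higher one. Among the neuron markers, Rbfox3, Snap25, Gad1 and Slc17a7 stayed under 0.3 FPKM in both libraries, whereas Tubb3 was at 44.7 and 59.8 FPKM and Stmn2 at 36.6 and 43.4 FPKM. Syp, at 1.09 and 0.441 FPKM (ratio 0.405, interval 0.181 to 0.844), was the neuron marker past a limit. The part of cell composition in the receptor ratios was not tested.

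**Figure D5:**
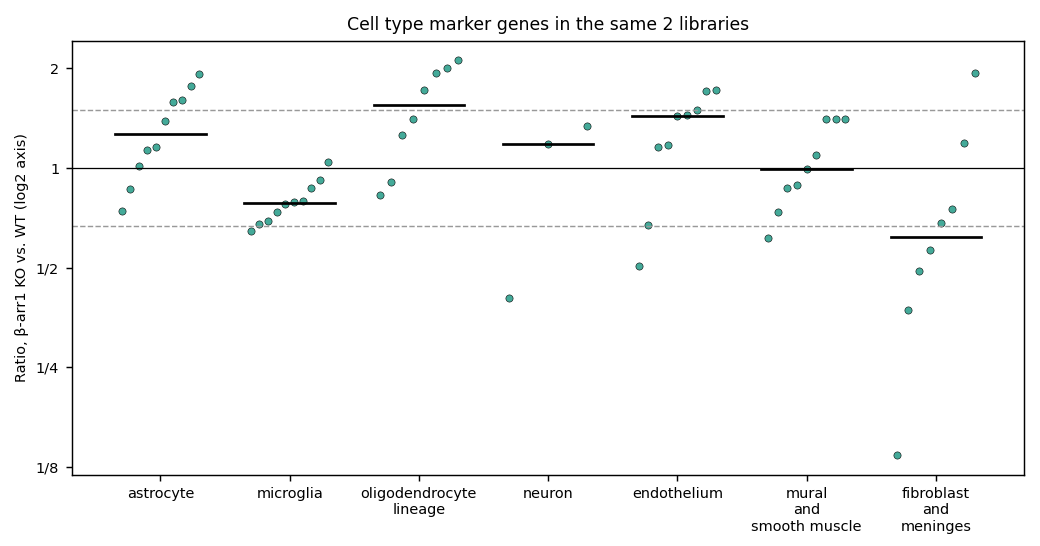
Ratio of FPKM, β-arr1 KO vs. WT (log2 axis), of the cell type marker genes with at least 1 FPKM that were listed in both tables, one point per gene, with a bar at the median of each list. In all, 9 of 10 microglia markers lay below 1, and 4 markers each of astrocytes and of the oligodendrocyte lineage lay above 3/2.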

How the data were processed

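RNA of cultured DG astrocytes was sequenced as 1 library per genotype. The authors aligned paired reads to mm9 with TopHat 1.4.0, estimated expression with Cufflinks and deposited an FPKM value above 0 per gene and library. Confidence bounds and strand setting are not given in the sources used here. Groups came from the sample labels. The tables were joined by symbol, keeping the highest of rows that share a symbol, and 1 was added to each start. Depth was estimated from genes under 0.15 FPKM with a transcript above 1000 bases (GENCODE vM1, NCBIM37): 70.7% of 416 in WT and 70.8% of 435 in β-arr1 KO lay within 5% of 1 to 3 fragments. Intervals use the longest transcript and miss differences in transcript use. The computation was tested on simulated data. Ratios have no pseudocount. Named were called members at 5 FPKM or more, the 3 highest per group and the 5 highest and 5 lowest ratios at 1 FPKM in both libraries. Further members were named after their values were seen. Members, gene lists and motifs were chosen with earlier results of these data known. Alternatives were other minimums, pseudocounts, scalings, limits and locus bounds. Some members are counted but not reported by name here or drawn in the labelled plots. Software was Python 3.11.15 with scipy 1.17.1, pandas 2.3.3, numpy 2.4.6 and, for figures, matplotlib 3.10.9.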

Additional observations from a re-analysis of the deposited data

How the results depend on the processing

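The 10 higher and 8 lower picked genes became 25 and 27 with a minimum of 0.1 FPKM and, at 5 FPKM or more, 4 and 4. Without the members that are not receptors of this class, 10 were higher and 7 lower. Stricter limits (2 and 1/2) left 4 higher and 1 lower. Genes with equal locus bounds in both tables gave 3 higher, 5 lower and a median log2 ratio of -0.074, against 0.042 over all receptor genes analysed. A pseudocount of 1 left 2 lower genes. Of the 34 genes named by the rule, 26 stayed on the same side of both limits under the 6 alternatives of pseudocount, scaling and summed rows, and 8 fell back between the limits with a pseudocount of 1: Ednrb, Gpr162, Gpr173, S1pr1, Gabbr2, Chrm3, Gpr45 and Adcyap1r1. Of the 26, only Adra1d, F2rl1, Gpr137b, Gpr84, Gpr123 and Gpr4 were past a limit. The others lay between the limits from the start, and a pseudocount could not move them out. Gpr173 also fell back with a pseudocount of 0.1 and with libraries rescaled to the same FPKM total. A pseudocount pulls every ratio toward 1, most at low levels. No paired analysis was possible because each genotype has 1 library, and for the same reason no library could be left out. Depth limits the ratios of genes under 1 FPKM, which rest on few fragments.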
